A study of Mus musculus with 8 samples.

Results

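Replication-type histone genes encode the linker histone H1 and the core histones H2A, H2B, H3 and H4 that package newly copied DNA. They were taken here as every gene whose name in the array annotation of the 0.2 set begins with Hist1h, Hist2h, Hist3h or Hist4h. This gave 49 genes with 57 probes, of 30199 gene names with 39429 probes on the array. By class they were 6 H1, 14 H2A, 12 H2B, 8 H3 and 9 H4 genes, and by cluster 37 Hist1, 8 Hist2, 3 Hist3 and 1 Hist4 gene. Hist1h2al and Hist3h2bb-ps carry the current pseudogene symbols H2af-ps2 and H2bu1-ps, and are counted by their file names. Each gene was represented by its brightest probe over the 8 arrays.

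The cells were mSCC-20, a mouse line from a cutaneous squamous cell carcinoma of the FVB/N strain. They had been transfected with miR-193b (2 arrays), with miR-365a (2 arrays) or with a control microRNA labelled NC (4 arrays). The labels give an amount of 0.2 µg for both miR-193b samples and NC replicates 1 and 2, here the 0.2 set, and 0.6 µg for both miR-365a samples and NC replicates 3 and 4, here the 0.6 set. The NC arrays sharing its amount served as the comparison for each microRNA. The labels name 1 cell line and leave unstated if the replicates were grown apart, so p-values reflect the spread between these arrays, which may be technical.

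Most messenger RNAs end in a poly(A) tail, but those of replication-type histone genes normally end in a short stem-loop that the stem-loop binding protein SLBP holds. The genes lack introns, lie in clusters, and are transcribed mainly while DNA is being copied in S phase. Their messages are degraded when DNA synthesis stops. Some of these genes also yield longer, polyadenylated transcripts that run past the stem-loop, a form known from cells that have left the cycle. The labelling kit named in the labels, a low-input Agilent amplification, primes cDNA at poly(A) tails. How much of each histone signal came from tailed RNA was not measured.

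Mature mouse microRNA sequences matched to the transfection labels by name, credited to RefSeq (GRCm38.p6), are shown with the seed, bases 2 to 8, in capitals. The labels give no arm or sequence, so that these -3p letters were the ones transfected is assumed. The seeds differ, so the microRNAs form separate seed families. RefSeq places miR-193b-3p at chr16:13449570-13449591, and genes at chr16:13453895-13453916 and chr11:79726467-79726488 give the same miR-365-3p letters, matched here to the label miR-365a.
mmu-miR-193b-3p: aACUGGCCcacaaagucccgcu
mmu-miR-365-3p: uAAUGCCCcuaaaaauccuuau

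Histone genes of a class are near copies, and a probe can bind the RNA of several of them. The annotation listed 2 or more RefSeq transcripts for the brightest probe of 15 of the 49 genes, and up to 4 for a probe. This counts transcripts and not genes: the 2 listed for Hist1h2be belong to 1 gene, and the 2 for Hist1h2al matched no current gene. Among the brightest probes, 14 pairs shared at least 90% of their letters over an ungapped stretch of 40 or more bases, and 8 genes lay in such a pair, 6 of them H2A genes. The probes of 4 of these H2A genes cover the same stretch at the end of the coding sequence and are shown 5′ to 3′ as the file gives them, with capitals at each position where the 4 probes are not all alike.
Hist1h2af, chr13:23626113-23626172, plus strand, mm9: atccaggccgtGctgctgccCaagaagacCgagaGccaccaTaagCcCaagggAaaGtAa
Hist1h2ak, chr13:21845304-21845363, minus strand, mm9: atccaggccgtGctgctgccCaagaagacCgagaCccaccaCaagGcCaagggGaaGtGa
Hist1h2an, chr13:21878695-21878754, minus strand, mm9: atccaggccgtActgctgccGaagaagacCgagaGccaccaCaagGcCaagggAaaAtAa
Hist2h2aa2, chr3:96043781-96043840, minus strand, mm9: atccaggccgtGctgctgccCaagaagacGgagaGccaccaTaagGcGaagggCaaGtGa

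The 4 probes differ at 10 of 60 positions. Signals of such probes may mix several genes, and values for a single H2A gene below carry this limit.

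The stem-loop itself lay inside 6 of the 57 probes, and the stretches around it are shown because these probes reach the normal end of the message. Capitals mark the 16 bases of the stem-loop.
Hist1h3a, within the probe at chr13:23853756-23853815, minus strand, mm9: accaaaGGCTCTTTTCAGAGCCaca
Hist1h3g, within the probe at chr13:23627719-23627778, plus strand, mm9: tttaaaGGCTCTTCTTAGAGCCaccca
Hist1h3i, within the probe at chr13:21874784-21874843, minus strand, mm9: acaaaaGGCTCTTTTCAGAGCCccctc
Hist1h4m, within the probe at chr13:21903960-21904019, plus strand, mm9: actaaaGGCCCTTTTCAGGGCCatccaa
Hist2h2bb, within the probe at chr3:96074056-96074115, plus strand, mm9: ccaaaaGGCTCTTTTCAGAGCCacttta
Hist2h2aa2, second probe, within chr3:96043669-96043728, minus strand, mm9: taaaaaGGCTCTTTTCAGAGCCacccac

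The first 5 of these probes ended 3 to 6 bases after the stem-loop. The second probe of Hist2h2aa2 began just before the stem-loop and ran 38 bases past it.

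Every array carried 43020 gene spots, none saturated. The share well above background ran from 51.4% to 54.6% for the 0.2 set and from 58.9% to 62.1% for the 0.6 set. Of 9 keratinocyte and squamous carcinoma markers, 9 were well above background on all 8 arrays. The same held for 1 of 6 fibroblast markers, 4 of 6 leukocyte, 2 of 6 endothelial and 2 of 5 melanocyte markers, and Col3a1, Dcn, Lum, Cdh5, Tek, Emcn and Dct were so on none. After miR-365a Krt8 and Csf1r rose by 0.61 and 1.90 and Mitf fell by 0.68, and after miR-193b Esam rose by 0.89 (log2 differences called by limma); the part of such markers in the histone values was not tested. Among the histone genes, 34 were well above background on all 8 arrays, 6 on none and 9 on some. To be tested, a gene had to reach that state on the 2 arrays of some transfection within a set, which left 42 of the 49 histone genes among 17865 genes. The 7 untested genes were Hist1h1d, Hist1h2ac, Hist1h2bg, Hist1h2bp, Hist1h2bq, Hist3h2ba and Hist3h2bb-ps, and 5 of the 12 H2B genes were among them. Having 2 arrays a group limits the precision.

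Levels below are log2 processed signals relative to the array's own 75th percentile, and differences are microRNA minus NC on that scale with the standard error of the limma fit. A gene was called at a Benjamini-Hochberg adjusted p under 0.05 over all 17865 genes.

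After miR-365a, 11 of the 42 tested histone genes fell and 0 rose. They were 1 H1, 2 H2B, 4 H3 and 4 H4 genes, and no H2A gene was among them. Over all genes 8.07% were called lower and 7.86% were called higher after miR-365a. The median difference of the 42 genes was -0.90, against 0.02 over all genes tested, and 35 of the 42 lay below 0, against 47.0% of all genes. On 30 of the 42 genes both miR-365a arrays lay below both NC arrays, on 6 above, and on 6 the arrays overlapped; over all genes tested 27.8% lay wholly below and 33.7% wholly above. At an unadjusted p under 0.05 limma gave 32 of the 42 genes, in both directions, against 31.4% of all genes. The count of 11 rested on several arrays: limma called 0 lower without NC replicate 3 or without either miR-365a replicate, 5 without NC replicate 4, 4 without either miR-193b replicate, and 19 without NC replicate 1 or NC replicate 2. The median difference stayed between -1.15 and -0.77 when 1 array was left out. The count was 1 with no filter on dim probes and 26 with normexp background correction. All 4 arrays of the 0.6 set lay on 1 slide.

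After miR-193b, 1 histone gene rose, the H2B gene Hist1h2bc, and 0 fell. Over all genes 1.72% were called higher and 1.17% were called lower after miR-193b. The median difference was -0.40, against 0.05 over all genes, and 33 of the 42 lay below 0, against 44.4% of all genes. Both miR-193b arrays lay below both NC arrays on 24 genes and above on 5, and the arrays overlapped on 13; over all genes tested 22.4% lay wholly below and 29.9% wholly above. At an unadjusted p under 0.05 limma gave 6 of the 42 genes, against 21.4% of all genes. On slide 1, which held an array of each group, the median difference was -0.12 with 29 of 42 genes below 0. Between miR-193b on slide 3 and NC on slide 2 it was -0.74 with 34 below 0. For these slide comparisons the shares over all genes are not given.

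The NC arrays differed among themselves in the same genes. NC replicate 2 lay above NC replicate 1 on 37 of the 42 genes, by a median of 0.53, and NC replicate 3 lay above NC replicate 4 on 32, by a median of 0.40. The shares over all genes are not given for these pairs of arrays. Whether the shift is particular to histone genes was not tested. The median histone level was -0.26 and -0.48 on the miR-193b arrays, against -0.33 and 0.19 on NC replicates 1 and 2. It was -0.36 and -0.53 on the miR-365a arrays, against 0.28 and -0.27 on NC replicates 3 and 4. The SD of this median level between arrays of a group was 0.285. It describes array medians, a different measure from the medians of gene differences (-0.40 after miR-193b and -0.90 after miR-365a). The size of those differences is therefore not set against it.

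**Figure D1:**
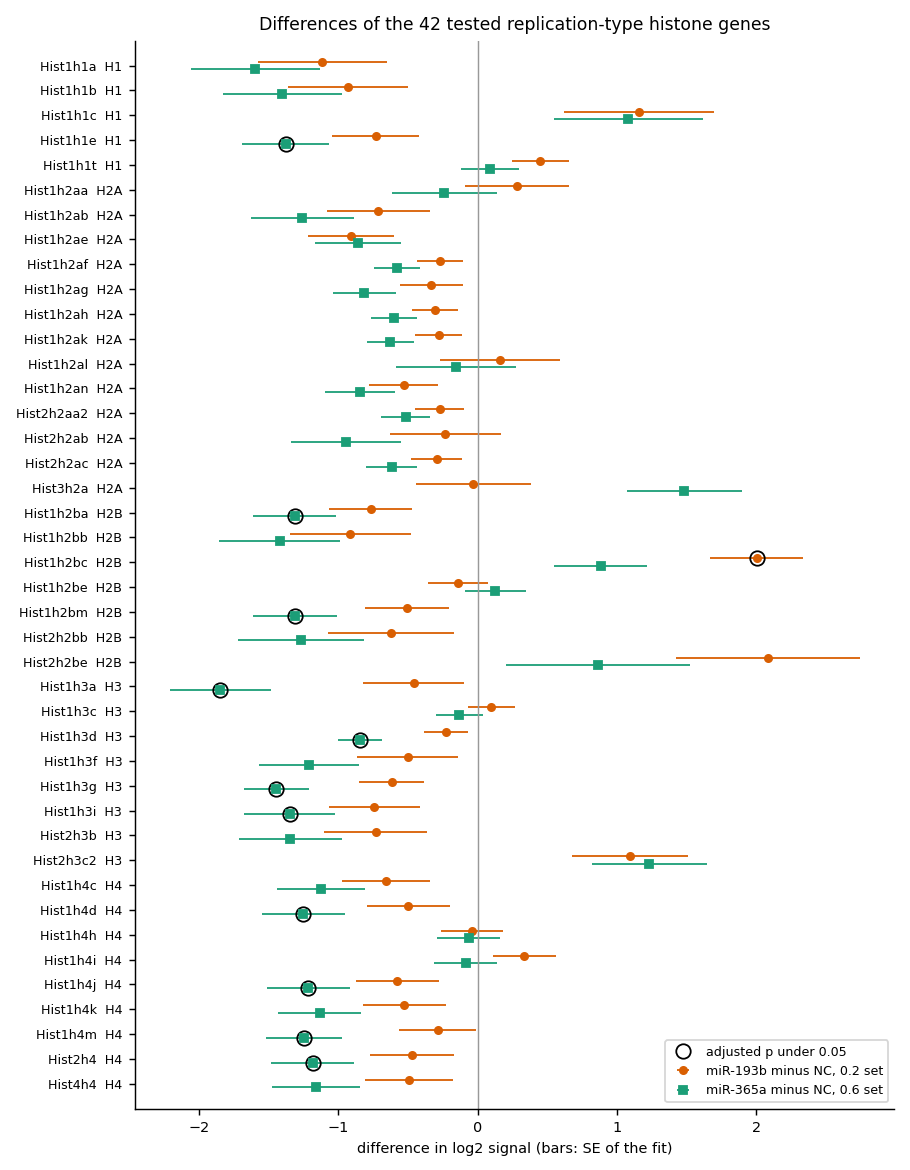
Difference in log2 signal of the 42 tested histone genes, grouped by class from H1 at the top to H4 at the bottom, for miR-193b minus NC (orange circles) and miR-365a minus NC (green squares). Bars are standard errors of the fit and rings mark adjusted p under 0.05; most genes lie left of 0, and the genes right of 0 include Hist1h1c, Hist1h2bc, Hist2h2be and Hist2h3c2 in both comparisons.

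Linker histones bind the DNA between nucleosomes. Of 5 tested H1 genes, 1 fell after miR-365a, against 8.07% of all genes, and 0 rose after either microRNA. Hist1h1e, encoding H1.4 (probe at chr13:23713707-23713766, mm9), had levels of 1.89 and 1.68 on the miR-365a arrays, against 3.52 and 2.81 on NC replicates 3 and 4. Both miR-365a arrays were lower, and Hist1h1e fell by 1.38 ± 0.31 (limma adjusted p = 0.033), or 2.60-fold. After miR-193b its levels were 1.81 and 1.75, against 2.15 and 2.88 on NC replicates 1 and 2. The groups did not overlap, and the difference of -0.73 ± 0.31 was not called (limma adjusted p = 0.24).

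The other H1 genes went different ways in value. Hist1h1a, encoding H1.1, had the lowest values of the class, at -1.12 after miR-193b and -1.60 after miR-365a, with standard errors of 0.46. Hist1h1b, encoding H1.5, gave -0.93 and -1.40 with standard errors of 0.43. Neither was called. Hist1h1c, encoding H1.2, lay above 0, at 1.16 after miR-193b and 1.08 after miR-365a, with standard errors of 0.54 and adjusted p of 0.27 and 0.23 by limma. Hist1h1t, the linker histone of the testis, was well above background on the 2 miR-365a arrays alone. Its levels there, -5.94 and -6.53, overlapped those of -6.40 and -6.24 on NC replicates 3 and 4, and it was not called (limma adjusted p = 0.84). It was not well above background on any array of the 0.2 set, so no miR-193b fold is given.

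H2A forms a dimer with H2B in the nucleosome. Of 13 tested H2A genes, 0 were called after either microRNA by limma, while 1 after miR-193b and 10 after miR-365a had an unadjusted p under 0.05. The shares over all genes were 21.4% after miR-193b and 31.4% after miR-365a. The 6 near-identical H2A genes, Hist1h2af, Hist1h2ag, Hist1h2ah, Hist1h2ak, Hist1h2an and Hist2h2aa2, moved in a narrow band. Their differences ran from -0.53 to -0.27 after miR-193b and from -0.85 to -0.52 after miR-365a, and their levels from 6.38 to 8.04 over the 8 arrays. The band was not particular to them. Hist2h2ac, whose probe lay in no such pair and listed 1 transcript, gave -0.29 ± 0.18 after miR-193b and -0.62 ± 0.18 after miR-365a. For Hist1h2ah the levels were 7.43 and 7.16 on the miR-365a arrays, against 8.04 and 7.75 on NC replicates 3 and 4. The groups did not overlap, and the adjusted p of 0.056 missed the threshold in limma. The probes of the 6 near-identical genes may read each other's RNA, so the 6 values may not be separate measurements.

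Hist1h2ab, whose probe listed 1 transcript, had the lowest miR-365a value of the class, at -1.26 ± 0.37 (limma adjusted p = 0.069). The probe of Hist1h2ae was well above background on no miR-193b array and on 1 NC array of the 0.2 set. Its bound of 1.22-fold lower after miR-193b also uses the dim NC array. Hist1h2ae was not called (limma adjusted p = 0.17). Hist2h2ab gave -0.23 ± 0.40 after miR-193b and -0.95 ± 0.40 after miR-365a. The testis gene Hist1h2aa gave 0.28 ± 0.37 and -0.24 ± 0.37. Hist1h2al was not well above background on any array of the 0.2 set and differed by -0.16 ± 0.43 after miR-365a.

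Hist3h2a was the H2A gene that stood highest after miR-365a. Its levels were -2.82 and -2.48 on the miR-365a arrays, against -4.54 and -3.72 on NC replicates 3 and 4. Both miR-365a arrays were higher, and the difference of 1.48 ± 0.41 was not called (limma adjusted p = 0.059). After miR-193b the levels were -4.27 and -5.27, against -4.50 and -4.98 on NC replicates 1 and 2, and the groups overlapped. The difference between its effects was -1.51 ± 0.58, with a limma adjusted p of 0.22.

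Among 7 tested H2B genes, 1 rose after miR-193b and 2 fell after miR-365a, against 1.72% and 8.07% of all genes. Hist1h2bc (probe at chr13:23784254-23784313, mm9) had levels of 0.06 and -0.52 on the miR-193b arrays, against -1.91 and -2.56 on NC replicates 1 and 2. Both miR-193b arrays lay well above both NC arrays, and Hist1h2bc rose by 2.00 ± 0.33 (limma adjusted p = 0.040), or 4.01-fold. The difference was 1.97 on slide 1 and 2.04 between slides 3 and 2. The call was lost whichever 1 of the 8 arrays was left out, with differences of 1.68 to 2.33 and limma adjusted p of 0.058 to 0.12. After miR-365a its levels were -0.56 and -0.35, against -1.68 and -0.99 on NC replicates 3 and 4. The groups again did not overlap, and the difference of 0.88 ± 0.33 was not called (limma adjusted p = 0.13).

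Hist1h2bm (chr13:21814057-21814116, mm9), whose probe listed 4 RefSeq transcripts, had levels of 0.53 and 0.26 on the miR-365a arrays, against 2.08 and 1.34 on NC replicates 3 and 4. It fell by 1.31 ± 0.30 (limma adjusted p = 0.034). Hist1h2ba, the testis H2B gene (chr13:24025811-24025870, mm9), had levels of -0.05 and -0.52 on the miR-365a arrays, against 1.42 and 0.63 on NC replicates 3 and 4. It fell by 1.31 ± 0.30 (limma adjusted p = 0.034). In both genes each miR-365a array lay below each NC array. After miR-193b Hist1h2bm differed by -0.51 ± 0.30 and Hist1h2ba by -0.77 ± 0.30, and neither was called.

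The other H2B genes were not called. Hist2h2be had levels of -3.09 and -5.32 on the miR-193b arrays, against -6.39 and -6.20 on NC replicates 1 and 2, where it was not well above background on either. Its bound was 2.54-fold higher after miR-193b, without a call (limma adjusted p = 0.15). Most of the excess lay on miR-193b replicate 1, and the probe was not well above background on miR-193b replicate 2. After miR-365a Hist2h2be differed by 0.86 ± 0.66. Hist1h2bb gave -0.92 ± 0.43 after miR-193b and -1.42 ± 0.43 after miR-365a. Hist2h2bb gave -0.63 ± 0.45 and -1.27 ± 0.45. Hist1h2be lay near 0, at -0.14 and 0.13 with standard errors of 0.22.

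H3 and H4 form the tetramer at the centre of the nucleosome. Of 8 tested H3 genes, 4 fell after miR-365a, against 8.07% of all genes. After miR-193b 0 H3 genes were called, and 2 had an unadjusted p under 0.05 in limma, against 21.4% of all genes. Hist1h3a (chr13:23853756-23853815, mm9) had levels of -4.69 and -4.87 on the miR-365a arrays, against -2.67 and -3.19 on NC replicates 3 and 4. Its fall of 1.85 ± 0.36 was the largest among the called genes of the set (limma adjusted p = 0.022), or 3.61-fold. After miR-193b its levels of -4.35 and -4.23 overlapped those of -4.38 and -3.28 on NC replicates 1 and 2.

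Hist1h3g (chr13:23627719-23627778, mm9) had levels of -3.04 and -3.40 on the miR-365a arrays, against -1.50 and -2.04 on NC replicates 3 and 4, and fell by 1.45 ± 0.23 (limma adjusted p = 0.013). Hist1h3i (chr13:21874784-21874843, mm9) had levels of -2.96 and -3.37 on the miR-365a arrays, against -1.47 and -2.16 on NC replicates 3 and 4, and fell by 1.35 ± 0.33 (limma adjusted p = 0.041). Neither gene's groups overlapped. The probes of both hold the stem-loop shown above and listed 1 transcript each. After miR-193b Hist1h3g differed by -0.62 ± 0.23 and Hist1h3i by -0.74 ± 0.33 without a call, and in both the miR-193b arrays lay below both NC arrays.

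The fourth H3 gene, Hist1h3d, falls outside the 10 largest differences named by rule and was added after its values were seen. It fell by 0.84 ± 0.15 after miR-365a (limma adjusted p = 0.019), and its probe listed 4 transcripts. Hist2h3b gave -1.34 ± 0.37 and Hist1h3f -1.21 ± 0.36 after miR-365a without a call. Hist1h3c lay near 0, at 0.10 after miR-193b and -0.13 after miR-365a. Hist2h3c2 lay above 0 in both comparisons, at 1.09 ± 0.41 after miR-193b and 1.23 ± 0.41 after miR-365a, with limma adjusted p of 0.20 and 0.097. Its levels were -3.48 and -3.30 on the miR-365a arrays, against -5.04 and -4.21 on NC replicates 3 and 4.

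Of 9 tested H4 genes, 4 fell after miR-365a and 9 had a difference below 0, against 8.07% and 47.0% of all genes. After miR-193b 0 H4 genes were called, and 0 had an unadjusted p under 0.05 in limma, against 21.4% of all genes. Hist1h4d (chr13:23673515-23673574, mm9) had levels of 3.55 and 3.11 on the miR-365a arrays, against 4.83 and 4.33 on NC replicates 3 and 4, and fell by 1.25 ± 0.30 (limma adjusted p = 0.039). Hist1h4m (chr13:21903960-21904019, mm9), whose probe holds the stem-loop, had levels of -2.50 and -2.87 on the miR-365a arrays, against -1.18 and -1.70 on NC replicates 3 and 4. It fell by 1.25 ± 0.27 (limma adjusted p = 0.031). The miR-365a and NC arrays were separate in both genes.

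Hist1h4j (chr13:21826989-21827048, mm9) had levels of -0.16 and -0.68 on the miR-365a arrays, against 1.09 and 0.50 on NC replicates 3 and 4, and fell by 1.22 ± 0.30 (limma adjusted p = 0.042). Hist2h4 (chr3:96066951-96067010, mm9) had levels of 4.70 and 4.23 on the miR-365a arrays, against 5.93 and 5.37 on NC replicates 3 and 4, and fell by 1.19 ± 0.30 (limma adjusted p = 0.045). These groups did not overlap either. The Hist1h4d and Hist1h4j probes shared 95% of 40 bases, so their falls may not be separate measurements. After miR-193b the 4 genes differed by -0.58 to -0.29. Hist1h4c, Hist1h4k and Hist4h4 gave -1.13, -1.14 and -1.16 after miR-365a, each with an adjusted p between 0.051 and 0.059 in limma. Hist1h4h lay near 0 at -0.04 and -0.07.

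**Figure D2:**
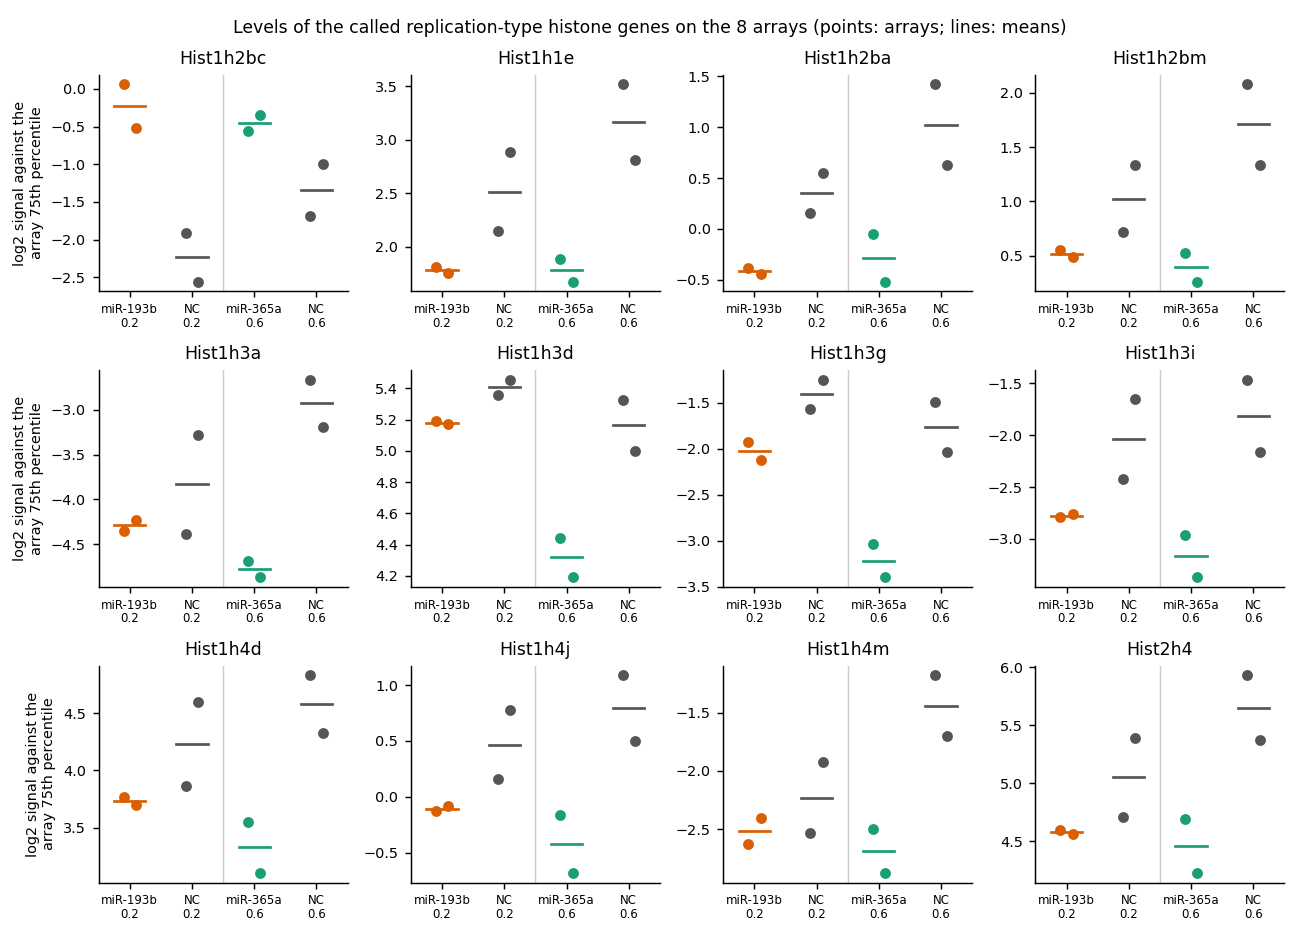
Log2 signal relative to the array's 75th percentile for Hist1h2bc and the 11 histone genes that fell after miR-365a, with miR-193b left of NC of the 0.2 set and miR-365a left of NC of the 0.6 set. Points are arrays and lines are means of 2 arrays; in the 11 genes both miR-365a points lie below both NC points, and in Hist1h2bc both miR-193b points lie above.

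Some of these probes list several copies. Of the 11 genes that fell after miR-365a, 7 had a probe that listed at most 1 RefSeq transcript and 4 a probe that listed 2 or more. Among the 28 tested genes whose probe listed at most 1, a group chosen after the data were seen, 7 were lower, 0 higher, and the median difference was -1.05. The shares over all genes were 8.07% lower and 7.86% higher.

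No histone gene was called in both comparisons. The difference between the effects, miR-193b effect minus miR-365a effect, was above 0 for 38 of the 42 genes, with a median of 0.51 against 0.02 over all genes. Limma called 0 of the 42, against 3.55% of all genes, and 5 had an unadjusted p under 0.05, against 20.2% of all genes, namely Hist1h3a, Hist1h3d, Hist1h3g, Hist1h4m and Hist3h2a. For Hist1h3a the difference was 1.39 ± 0.51 (limma adjusted p = 0.20). The sets also differ in amount and slide, which cannot be told apart from each other. Between the NC arrays of the 0.6 and the 0.2 set, 2 of the 42 genes were called, both higher in the 0.6 set, against 15.6% of all genes in either direction. They were Hist1h4i, at 1.10 on its brightest probe, and Hist1h1t, which was well above background on none of the 4 NC arrays and is given no value. The other probes of Hist1h4i differed between these NC arrays by 0.01 and -0.69.

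The place of a probe in its target transcript ran along with the direction of its value. Probes were divided after the values were seen, so no test is given: a probe counted as distal if it began at least 500 bases into its target, or 700 for H1. The brightest probe was distal in 13 genes, of which 7 were tested, and proximal in 36, of which 35 were tested. Of the 7 distal genes, 6 lay above 0 after miR-365a, with a median of 0.88, and 4 lay above 0 after miR-193b, with a median of 1.09. Of these 7, only Hist1h1c and Hist1h2bc were well above background on all 8 arrays. Hist1h2be, Hist2h3c2 and Hist3h2a were so on 7, and Hist1h2ae and Hist2h2be on 4. The distal medians therefore include values near background, and Hist1h2be counted as above 0 after miR-365a at 0.13 ± 0.22. Hist2h2be met the condition for testing on the 2 miR-365a arrays alone, so its place among the genes above 0 depended on being bright there. Hist1h2ae, which lay below 0, met it on NC replicates 3 and 4 alone. Of the 35 proximal genes, 34 lay below 0 after miR-365a, with a median of -1.16, and 30 lay below 0 after miR-193b, with a median of -0.50. All 11 genes that fell were read by proximal probes, and Hist1h2bc by a distal one that began 632 bases into its target.

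The distal genes above 0 were Hist1h1c, Hist1h2bc, Hist2h2be and Hist2h3c2 in both comparisons, and Hist3h2a and Hist1h2be after miR-365a alone. Hist1h2ae, at 541 bases into its target just past the division, went the other way, with a bound of 1.22-fold lower after miR-193b. It lay at -0.86 after miR-365a and was called in neither comparison. Just short of the division lay Hist1h4i at 483 bases and, in H1, Hist1h1t at 663 bases and Hist1h1e at 661. The 6 untested distal genes include Hist1h1d and Hist1h2ac, whose probes began 2886 and 2426 bases into their targets. Hist1h2bg, untested at 554 bases, read -7.42 and -8.32 on the miR-365a arrays, against -6.23 and -6.42 on NC replicates 3 and 4. Both miR-365a arrays were lower, and the arrays overlapped after miR-193b. Its probe was well above background on NC replicates 2 and 3 alone. Hist1h2bp, untested at 505 bases, lay higher on both miR-365a arrays but was well above background on no array.

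**Figure D3:**
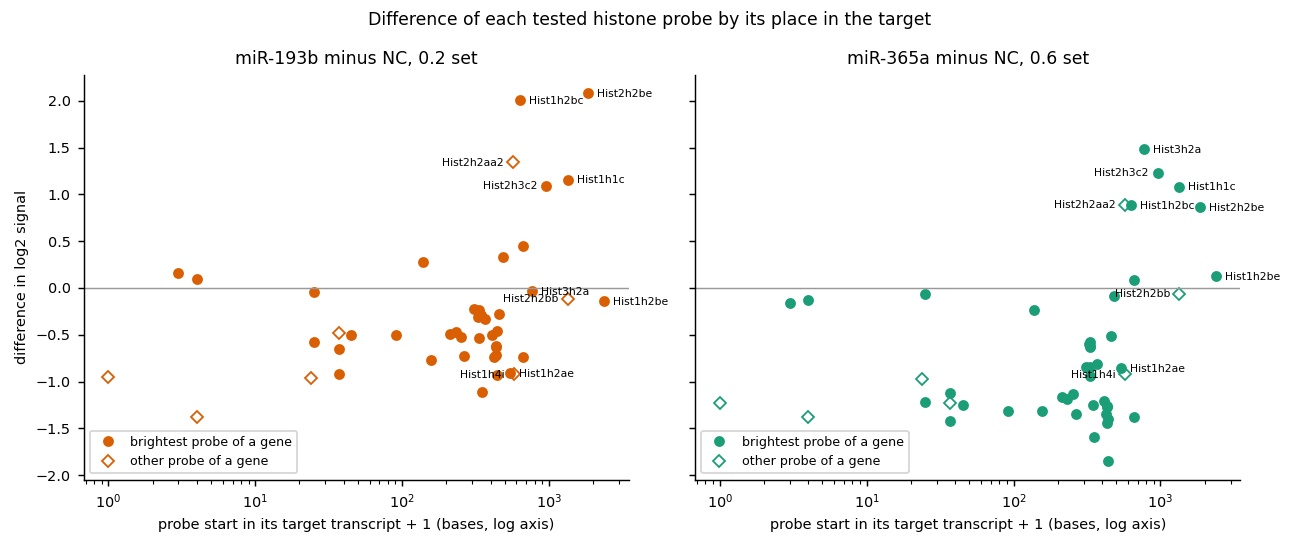
Difference in log2 signal of every tested histone probe against its start in the target transcript (log axis), for miR-193b minus NC on the left and miR-365a minus NC on the right. Filled circles are the brightest probe of a gene and open diamonds its other probes; values above 1 occur only among probes that begin more than 500 bases into the target, and Hist1h2ae is a named exception at that end.

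Genes with several probes allowed the same comparison within a gene, and these genes did not all go the same way. Hist2h2aa2 has a coding probe, 457 bases into its target, and a second probe that runs past the stem-loop. The second probe read -1.10 and -1.69 on the miR-193b arrays, against -2.37 and -3.11 on NC replicates 1 and 2, a difference of 1.34 ± 0.34 (limma adjusted p over all probes = 0.099). On the coding probe the levels were 7.29 and 7.26, against 7.38 and 7.72, a difference of -0.27 ± 0.17. After miR-365a the second probe gave 0.89 ± 0.34 and the coding probe -0.52 ± 0.17. Each probe's arrays were separate in both comparisons, in opposite directions, and none of these differences was called.

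In Hist1h4i 1 of 3 probes differed from the others. Its brightest probe, 483 bases into the target and with no genome position in the file, gave 0.33 ± 0.23 after miR-193b and -0.09 ± 0.23 after miR-365a. Its other probes, at 23 and 574 bases, gave -0.96 and -0.92 after miR-193b, and -0.98 and -0.92 after miR-365a. The probe at 574 bases is distal by the division above, yet lay below 0 in both comparisons. The probe at 23 bases was called lower after miR-365a (limma adjusted p over all probes = 0.042). In Hist2h2bb the probe with the stem-loop lay below 0 as given above, and a probe 1340 bases into the target stayed near 0, at -0.12 ± 0.22 and -0.06 ± 0.22. Both probes of Hist1h4k lay below 0, at -0.53 and -0.48 after miR-193b and -1.14 and -1.23 after miR-365a, and so did both of Hist1h2ak, at -0.28 and -0.95, and -0.63 and -1.23.

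**Figure D4:**
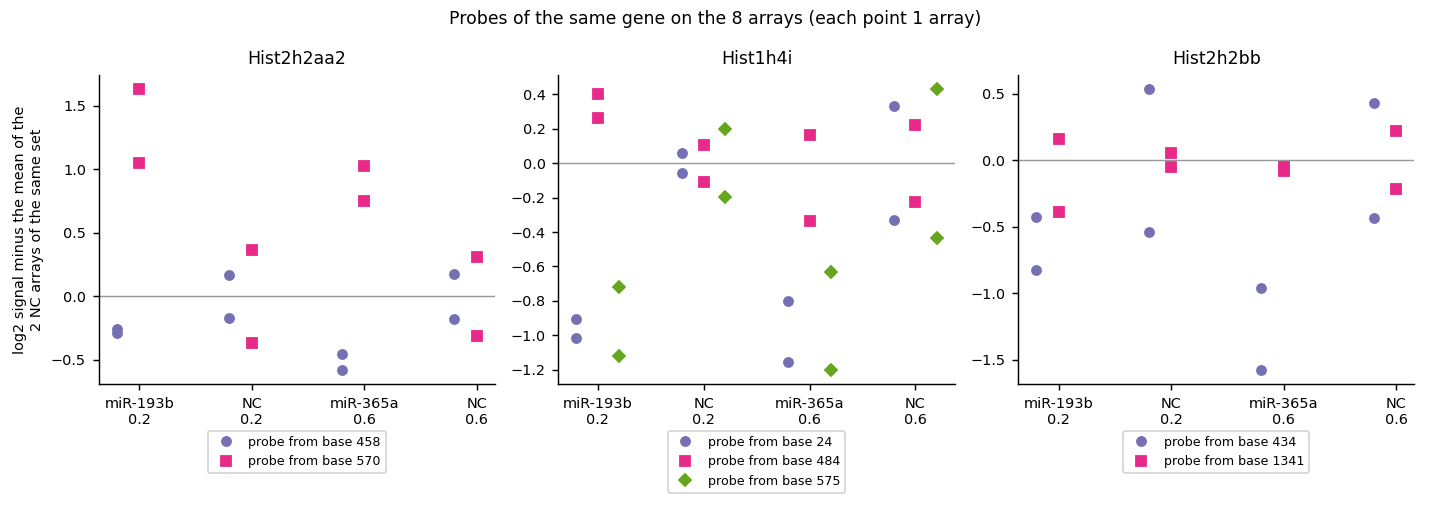
Log2 signal of each probe of Hist2h2aa2, Hist1h4i and Hist2h2bb on the 8 arrays, minus the mean of the 2 NC arrays of the same set, with miR-193b left of NC (0.2 set) and miR-365a left of NC (0.6 set). Each point is 1 array; the Hist2h2aa2 probe past the stem-loop lies above 0 and its coding probe below 0 on all 4 microRNA arrays.

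Promoters of the genes were described by their letters. A RefSeq promoter of 300 bases (GRCm38.p6) was found for 42 of the 49 genes, 43 promoters in all. Motifs were searched as exact letters on both strands. The octamer ATTTGCAT, known from H2B promoters, was in 6 of 10 H2B and 7 of 13 H2A promoters and in 0 of the 20 H1, H3 and H4 promoters, against 1.74% of all 32851 promoters. The CCAAT box was in 37 of 43, against 37.4% of all, and in 2 of 8 H4 promoters. TATAAA was in 25 of 43, against 13.6% of all. AAACACA, the H1 box, was in 5 of 6 H1 promoters, against 7.18% of all. The promoter of Hist1h2bm, an H2B gene that fell after miR-365a, lies at chr13:21721794-21722093 on the plus strand and is shown with its octamer, CCAAT boxes and H1 box letters in capitals.
Hist1h2bm promoter: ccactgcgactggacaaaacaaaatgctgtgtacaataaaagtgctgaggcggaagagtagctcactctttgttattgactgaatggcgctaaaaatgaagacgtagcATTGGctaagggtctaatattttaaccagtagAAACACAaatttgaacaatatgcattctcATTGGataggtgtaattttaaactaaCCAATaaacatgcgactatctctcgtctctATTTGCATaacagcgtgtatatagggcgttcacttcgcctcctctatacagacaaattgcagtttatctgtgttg

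The promoter holds CCAAT letters at 3 places, written ATTGG where they lie on the other strand. A match describes letters in this window and says nothing of a factor bound there.

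Genes around the histone messages were counted from 4 lists. Over all genes 8.07% were called lower and 7.86% higher after miR-365a, and 1.17% lower and 1.72% higher after miR-193b. An unadjusted p under 0.05 in limma was met by 31.4% of all genes after miR-365a and 21.4% after miR-193b. Of 17 tested genes for histone RNA transcription and 3′ processing, 0 were called after miR-193b, and 2 had an unadjusted p under 0.05 in limma. After miR-365a 1 was higher and 1 lower: Hinfp, a transcription factor of H4 genes, rose by 0.54 ± 0.12, and Cstf2, a subunit of the cleavage stimulation factor, fell by 1.07 ± 0.13. Slbp, which encodes the stem-loop binding protein, differed by -0.50 ± 0.15 after miR-193b and -0.20 ± 0.15 after miR-365a, with limma adjusted p of 0.14 and 0.45. The list's median difference was 0.08 after miR-365a and -0.11 after miR-193b, against 0.02 and 0.05 over all genes.

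Of 10 tested replication-independent variant histones, most of which are made also outside S phase from polyadenylated messages, 3 fell after miR-365a. The share over all genes was 8.07%. H2afy, encoding macroH2A, fell by 1.18 ± 0.13, Cenpa, encoding the centromeric H3, by 1.04 ± 0.15, and H3f3b, one of the H3.3 genes, by 0.73 ± 0.12. After miR-193b 0 were called, and 1 had an unadjusted p under 0.05 in limma. Of 21 tested histone chaperones and carriers, 4 fell after miR-365a, namely Rbbp7, Hjurp, Nasp and Chaf1a, with differences of -1.02, -0.64, -0.78 and -0.60. After miR-193b 0 were called, and 9 had an unadjusted p under 0.05 in limma, against 21.4% of all genes.

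Of 28 tested S-phase genes, 10 fell and 0 rose after miR-365a, against 8.07% and 7.86% of all genes, with a list median of -0.66. Those with the smallest p were Cdc6 and Cdt1, which load the replicative helicase, Mcm5, a subunit of that helicase, and Rrm2, a subunit of ribonucleotide reductase, with differences of -1.95, -1.14, -1.66 and -1.0. After miR-193b 2 fell and 0 rose, against 1.17% and 1.72% of all genes, with a list median of -0.46. Cdc45 fell by 1.09 ± 0.17 and Cdc25a by 0.87 ± 0.16. Whether the S-phase share of the cells moved with the histone levels was not tested. In bulk RNA, fewer cells in S phase and less histone RNA per cell cannot be told apart.

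**Figure D5:**
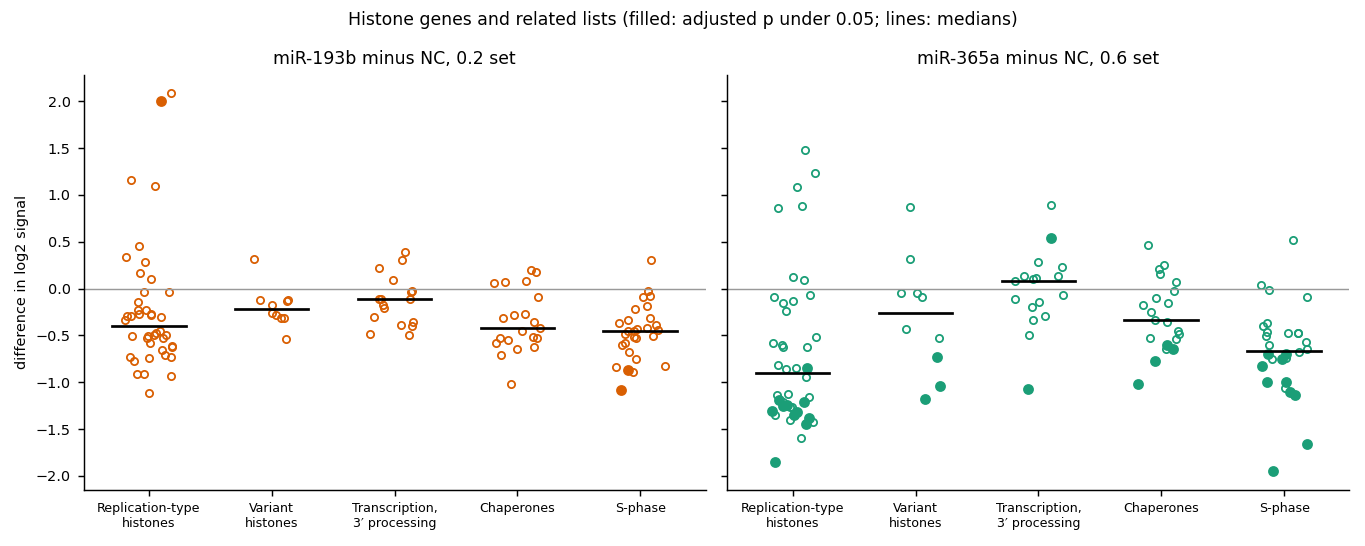
Difference in log2 signal for the tested replication-type histone genes, variant histones, genes of histone RNA transcription and 3′ processing, chaperones and S-phase genes, for miR-193b minus NC on the left and miR-365a minus NC on the right. Each point is a gene, filled at adjusted p under 0.05, and black lines are list medians; after miR-365a the medians run from -0.90 for replication-type histones to 0.08 for the processing list.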

How the data were processed

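Cy3-labelled total RNA was measured on 8 Agilent mouse arrays, 1 colour each. Spot intensity was deposited as Agilent Feature Extraction 10.7.3.1 processed signal, per the file headers, background-subtracted within each array, with probe positions on mm9. A deposited table of log2 values by the authors served as an alternative; its columns had medians of 7.11 to 7.12 and correlated best with their own arrays (r across spots 0.965 to 0.981), which gives a log2 scale of similar direction, its background correction not given in the sources used here. The submitters' processing notes name limma.

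Spots with outlier flags were left out, log2 signals were centred on each array's 75th percentile, and spots were averaged per probe. Genes keep the file's names; the 0.6 set's files name 4 histone probes differently, so the names of the 0.2 set were used throughout. Of 49 histone genes, 46 matched RefSeq by accession and 3 by synonym. Effects were fitted in R 4.3.3 with limma 3.58.1 (lmFit, eBayes) on all 8 arrays, with terms for set, miR-193b and miR-365a, leaving 4 residual degrees of freedom and a prior of 2.3. Where a probe was not well above background on either array of a group, a lower bound is given. It sets the bright group's mean against the dim group's mean of the higher of the probe's own signal and the lowest signal well above background. The bright group's mean can include an array not well above background, so such a bound is approximate.

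Members and lists were chosen with earlier results of these data known. Genes given with array values by rule were the called members, up to the 10 largest differences per comparison. Of other lists, up to 4 members with the smallest p were named. Array values of Hist1h2ah, Hist3h2a, Hist2h2be, Hist2h3c2 and the probes of Hist2h2aa2, none of them called, are given outside this rule. Alternatives covered normalization, background correction, filters, probes, variance model, slide and each array left out. The fit was tested on simulated data. Sequences and figures were handled in Python 3.11.15 (matplotlib 3.10.9, pandas 2.3.3).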

Additional observations from a re-analysis of the deposited data

Results flagged for a closer look

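Over the 4 NC arrays, 1 array stood far from the rest in 2 of the 42 tested histone genes, where chance puts about 1 in 20 groups past the limit. In Hist1h2aa the gap of NC replicate 1 to the nearest array was 0.886 of the range of the NC arrays, with levels of -4.70 on NC replicate 1, -3.54 on 2, -3.40 on 3 and -3.54 on 4. In Hist1h2ae the gap of NC replicate 2 was 0.904 of the range, with levels of -5.36, -4.97, -5.35 and -5.39 on NC replicates 1 to 4. The NC arrays come from both amount sets.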

How the results depend on the processing

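No paired analysis was possible because the replicate numbers follow accession order and pair no arrays. The direction of the median histone difference held under every alternative run. After miR-193b it was -0.74 between slides 3 and 2, and -0.73 to -0.13 with 1 array left out; after miR-365a -1.15 to -0.77. The count lower after miR-365a was 11 as reported, 26 with normexp background correction, 25 with genes well above background on all 8 arrays, 24 with trended and robust variance, 24 with slide as a random block, 20 in the deposited log2 values, 7 among genes whose probe lists at most 1 RefSeq transcript (fewer genes) and 1 with no filter on dim probes, and 0 to 19 with 1 array left out. The count higher after miR-193b was 1, but 0 in the 0.2 set alone and with no filter, and 0 to 1 with 1 array left out, never Hist1h2bc. The count higher after miR-365a was 0, but 2 with normexp, 2 in the deposited values, and 1 each in the 0.6 set alone, with trended and robust variance and with slide as a block, and 0 to 1 with 1 array left out. Genes with different effects numbered 0, and 0 to 1 with 1 array left out. Genes lower after miR-193b numbered 0 throughout, also with 1 array left out (0 to 0). With 1 array left out, Hist1h3a after miR-193b ran from -1.01 to 0.094 and Hist1h4m after miR-193b from -0.59 to 0.013, above 0 in both without NC replicate 2. Over all genes the count called after miR-365a ran from 591 to 2873 with 1 array left out, against 2846. The cause of these changes was not tested. Where 1 array was left out, the lone array is assumed to vary like the others.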
